A study of Mus musculus with 20 samples.

Results

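The libraries described here are the KO day 14 group set against the KO day 7 group, 4 libraries each, chosen by the titles of the samples. They are 8 of the 20 libraries of a study of mouse plantaris tendon, in which total RNA was sequenced after a growth stimulus that the titles mark as OL and do not spell out. KO mice had the genotype ScxCreERT2+/+ IGF1Rflox/flox, in which a tamoxifen-activated recombinase is made under the control of Scx, the gene of a tenocyte transcription factor. WT mice had the genotype ScxCreERT2-/- IGF1Rflox/flox, so every mouse, WT included, carried floxed alleles of the IGF1 receptor gene Igf1r. The KO and WT groups at day 7 and day 14 had all received tamoxifen and the stimulus, and the WT day 0 group had received neither. The sources used here do not give the age and sex of the mice. Recombination is limited to cells in which Scx is active while tamoxifen is present, and no label states whether replicates came from separate mice, so p-values measure the spread between libraries, which may be technical. A whole tendon also holds vessels, nerves, immune cells, sheath and any muscle left at its ends, and in such bulk RNA fewer cells of a type and less RNA per cell cannot be told apart.

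A plantaris tendon under a growth stimulus first fills with dividing cells and immune cells and then lays down aligned matrix. Tenocytes build that matrix from collagen fibrils, whose width is set by small leucine-rich proteoglycans, and they mature under the transcription factors scleraxis (Scx) and Mohawk (Mkx). IGF1 acts on the receptor Igf1r, signals through Irs and Akt proteins, and is buffered outside the cell by binding proteins. The comparison of day 14 with day 7 follows the later phase of this growth in tendons whose tenocytes were targeted for loss of that receptor.

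The KO day 7 libraries held 39.8 to 63.5 M counts and the KO day 14 libraries 36.5 to 43.1 M, so the earlier group was sequenced more deeply on the whole, with overlapping ranges. Principal component analysis of the 8 libraries put 32.2% of the variance on its first axis, which separated the days, with day 7 between -54.7 and -27.5 and day 14 between 16.9 and 54.8. The 10 most abundant genes took 17.8 to 19.8% of the counts at day 7 and 21.2 to 23.6% at day 14. The tissue label was borne out by the markers: the 11 fibrillar collagen genes alone made up 13.3, 13.2, 14.1 and 15.1% of counts at day 7 and 17.3, 15.5, 15.7 and 15.9% at day 14, and Tnmd, Thbs4, Fmod, Kera and Scx were read in every library. No pair of them was a duplicate, the most alike pair differing with a chi-square of 33.3 per degree of freedom.

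Igf1r, the receptor gene under study (ENSMUSG00000005533, chromosome 7, 67952827 to 68233668, plus strand of GRCm38), read 55.02, 49.3, 48.99 and 52.02 CPM (counts scaled to library size) in the KO day 7 libraries and 49.8, 52.3, 60.4 and 49.8 CPM at day 14. The ranges overlapped and the difference did not pass (log2 fold change 0.05, SE 0.08, adjusted p = 0.741), and WT libraries held 46.05 to 50.8 CPM at day 7 and 40.5 to 48.7 CPM at day 14. Reads were summed over the entire gene, so these values leave the deletion of a part of it unchecked. Scx (ENSMUSG00000034161, chromosome 15, 76457452 to 76459458, plus strand), whose control elements drive the recombinase, read 593, 1153, 557 and 639 CPM at day 7 and 1294, 885, 860.2 and 1958 CPM at day 14. Those groups overlapped through day 7 replicate 2, and the difference did not pass (log2 fold change 0.76, SE 0.27, adjusted p = 0.0637). It passed without that library (1.07, adjusted p = 0.0156), without day 14 replicate 2 (0.90, adjusted p = 0.0426) or replicate 3 (0.91, adjusted p = 0.0434), and with DESeq2 (0.77, adjusted p = 0.023). WT libraries held 44.8 to 57.1 CPM of Scx at day 7 and 70.3 to 142 CPM at day 14, below every KO library, and whether the recombinase allele adds reads to Scx was not tested. Bop1, which encodes a factor for ribosome assembly and overlaps Scx on the opposite strand (ENSMUSG00000022557, chromosome 15, 76452989 to 76477277, minus strand), read 224, 345, 209 and 264 and 477, 229, 289 and 516 CPM on the same days (log2 fold change 0.54, SE 0.21, adjusted p = 0.0977), and since the sources used here do not give the strand setting, its reads cannot be told apart from those of Scx.

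Between day 7 and day 14 the KO tendons gained transcripts of tendon matrix and tenocyte maturation and lost transcripts of DNA replication, mitosis, myeloid cells and inflammatory signals. Of 18918 genes tested, 1341 rose (7.09%) and 1621 fell (8.57%) at a Benjamini-Hochberg adjusted p below 0.05 in edgeR's quasi-likelihood test, 2962 in all (15.7%). At least a 2-fold change was seen for 259 of the genes that rose (19.3%) and 463 of those that fell (28.6%). The 4 and 4 libraries did not overlap for 3906 genes (20.6% of those tested), 2367 of them among the called genes. Every count over a gene list given below is read against these percentages. The 48 lists share members, so a gene can stand in more than 1. The median log2 fold change over all genes tested was 0.0013. The number of calls varied with the library left out: 1693 genes passed without day 14 replicate 1 and 1885 without day 7 replicate 2, while the other libraries, left out in turn, gave 2166 to 2956. Leaving out a library also makes its group smaller, so these counts do not tell lost power from the weight of that library.

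**Figure D1:**
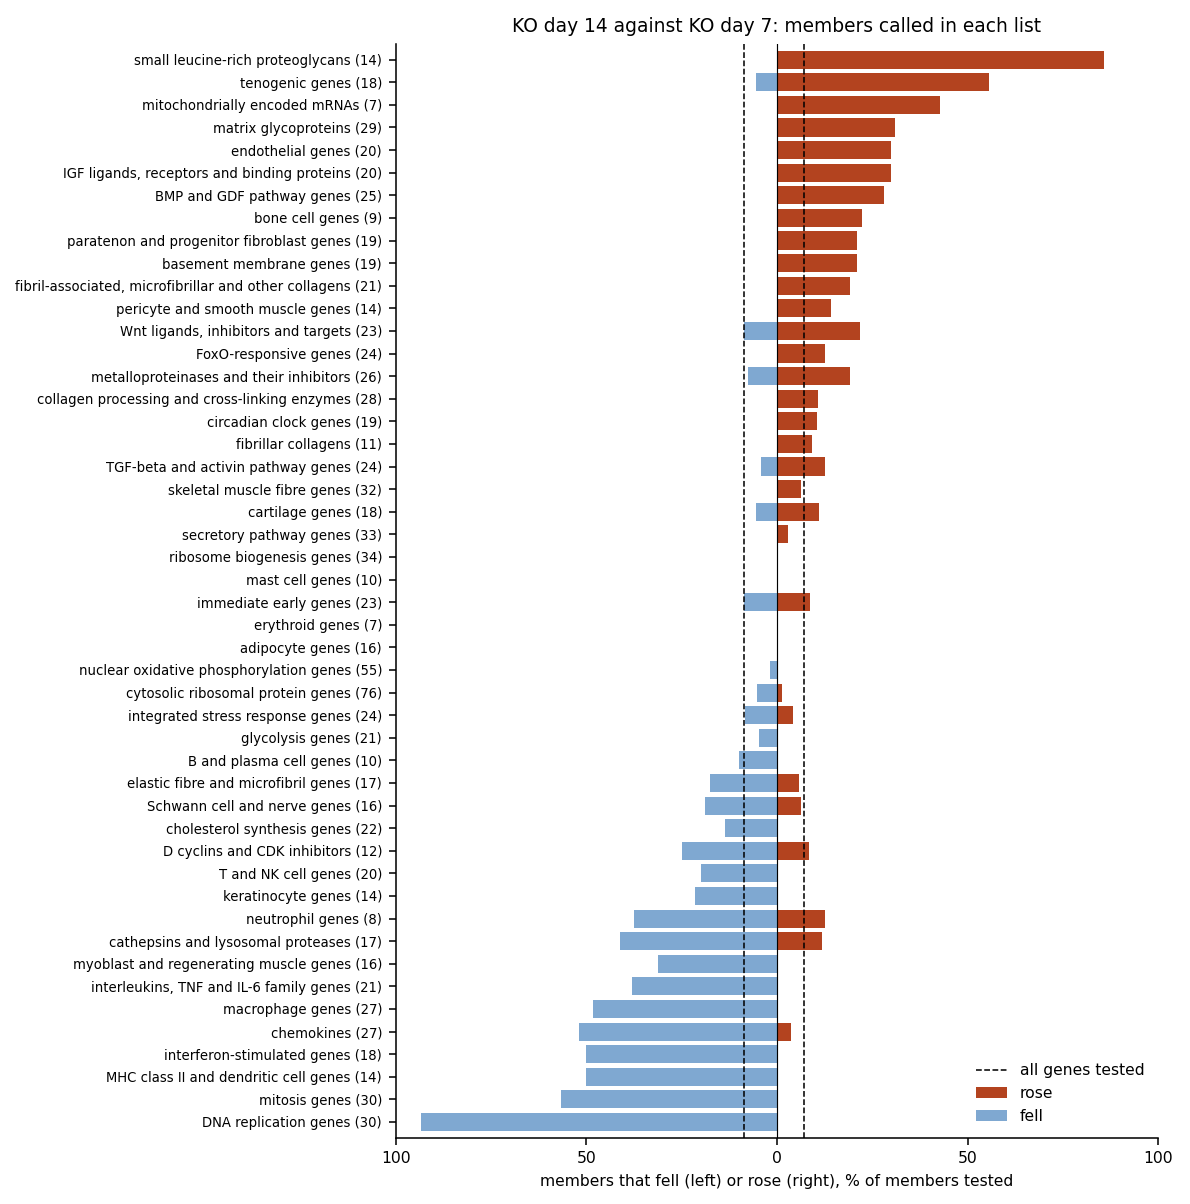
Share of the tested members of each of 48 gene lists that rose (right, red) or fell (left, blue) between KO day 7 and KO day 14, in percent, with the number tested in brackets. Dashed lines mark the shares over all genes tested, 7.09% and 8.57%. Small leucine-rich proteoglycans and DNA replication genes reach furthest to each side, with 12 of 14 and 28 of 30 members called.

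Genes of tenocyte identity rose. Of 18 tenogenic genes tested, 10 rose and 1 fell, with a median log2 fold change of 0.68. Tnmd (ENSMUSG00000031250, chromosome X, 133850980 to 133865577, plus strand) encodes tenomodulin, a membrane protein of mature tenocytes. It read 235, 177, 240.3 and 249 CPM at day 7 and 892, 585, 1103 and 942 CPM at day 14. Every day 14 library lay above every day 7 library (log2 fold change 1.96, SE 0.28, adjusted p = 0.000276; two-sided exact permutation p = 0.0286, the smallest that 4 against 4 libraries allow). Kera, which encodes the proteoglycan keratocan, went from 126, 80.8, 137 and 162 CPM to 393, 342, 465 and 384 CPM. Again the groups were apart, by more than the spread within either (log2 fold change 1.65, SE 0.23, adjusted p = 0.000212). Thbs4, the thrombospondin of tendon matrix, read 6652, 5869.8, 6969.5 and 6477 CPM at day 7 and 10820.0, 10975, 10985 and 9258 CPM at day 14 (log2 fold change 0.69, SE 0.13, adjusted p = 0.00203), with day 14 replicate 4 the lowest of its group and still above all of day 7. Cilp2, a matrix protein of cartilage and tendon, rose from 98.99, 160.4, 256 and 248 CPM to 721, 420.4, 1106 and 388 CPM (log2 fold change 1.79, SE 0.34, adjusted p = 0.00265). The other members that rose were Fmod, Col14a1, Mkx (0.64, adjusted p = 0.00319), Dcn (0.67, adjusted p = 0.00626), Fibin (0.92, adjusted p = 0.00707) and Ptgis (0.74, adjusted p = 0.00531). Egr2, an early growth response factor that tenocytes use downstream of force and that nerve sheath cells also express, fell, with 5.20, 19.8, 17.97 and 18.4 CPM and 3.56, 6.67, 7.96 and 9.77 CPM, overlapping (log2 fold change -1.13, SE 0.37, adjusted p = 0.0444). Its call was lost when any of 6 of the 8 libraries was left out, with adjusted p up to 0.136, and under 6 of the other settings. Col1a1 (0.25, adjusted p = 0.530), Col1a2 (0.53, adjusted p = 0.0606), Comp (0.29, adjusted p = 0.373) and Egr1 (-0.75, adjusted p = 0.434) did not pass.

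The proteoglycans that bind collagen fibrils were the list with the largest share of members that rose. Of 14 small leucine-rich proteoglycans 12 rose and none fell, with a median log2 fold change of 0.71, and Podn and Podnl1 did not pass. Together they made up 2.05, 2.05, 2.05 and 2.08% of counts at day 7 and 3.24, 2.83, 3.28 and 2.58% at day 14. Fmod (ENSMUSG00000041559, chromosome 1, 134037254 to 134048277, plus strand), fibromodulin, which limits lateral fusion of fibrils, read 2782, 2932, 2777 and 3328 CPM at day 7 and 5709.5, 5059, 7141 and 5113 CPM at day 14. No day 14 library came down to the level of day 7 (log2 fold change 0.96, SE 0.17, adjusted p = 0.00135). Lum, its close relative lumican, read 2027, 1774, 1979 and 2043 CPM and 3644, 2595, 3437 and 2897 CPM (log2 fold change 0.68, SE 0.15, adjusted p = 0.00396). Ecm2 showed a larger change, from 107, 115, 137 and 136 CPM to 383, 293, 322 and 219.6 CPM (log2 fold change 1.30, SE 0.21, adjusted p = 0.000618). Chad, chondroadherin, a protein that links cells to collagen, read 154, 348, 492 and 344 CPM at day 7 and 1379, 1304, 1553 and 332 CPM at day 14 (log2 fold change 1.77, SE 0.37, adjusted p = 0.00383). Its groups overlapped, since day 14 replicate 4 stayed at the level of day 7 while the other 3 were all higher, and the call was lost in a fit to the 8 KO libraries alone. The remaining members that rose were Epyc (1.70), Omd (1.07), Ogn (0.74), Dcn (0.67), Prelp (0.63), Aspn (0.61) and Bgn (0.42), each given as its log2 fold change, and Kera as above. Without day 14 replicate 1 the count of members that rose was 8.

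Other matrix glycoproteins moved the same way in part. Of 29 tested, 9 rose and none fell, with a median of 0.35. Matn4 (ENSMUSG00000016995, chromosome 2, 164389393 to 164405160, minus strand), matrilin-4, an adaptor between matrix filaments, had the largest rise by the naming rule. It read 11.96, 8.72, 9.10 and 15.9 CPM at day 7 and 99.2, 61.1, 98.4 and 35.03 CPM at day 14 (log2 fold change 2.68, SE 0.47, adjusted p = 0.00170). The day 14 libraries differed among themselves and still stood apart from day 7. Matn2 (0.79, adjusted p = 0.000350) rose as well, and Sparc, a collagen-binding glycoprotein, went from 14225, 13625, 14173 and 15416 CPM to 24701, 19465, 22862 and 22169 CPM (log2 fold change 0.63, SE 0.11, adjusted p = 0.000920). The count stayed at 9 without any 1 of the libraries.

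Calls among the collagens were few, though 9 of 11 fibrillar and 20 of 21 other collagens had a log2 fold change above 0. Of 11 fibrillar collagens, Col11a1, a minor collagen that nucleates fibrils, was the sole member called, with 1213, 698, 733 and 1208 CPM and 1617, 1158, 1774 and 1905 CPM (log2 fold change 0.74, SE 0.25, adjusted p = 0.0457). Its groups overlapped, and its call was lost without any of 5 libraries, with adjusted p up to 0.138, and in the fit to the 8 KO libraries alone. Summed, the fibrillar collagens rose as a share of counts from 13.9% ± 0.869 (SD, n = 4) to 16.1% ± 0.819 (SD, n = 4), with no overlap (exact permutation p = 0.0286). Of 21 other collagens 4 rose and none fell, with a median of 0.42. Col8a1, a short-chain collagen of vessel walls and cell sheaths, read 457, 365, 324 and 364 CPM at day 7 and 1129.9, 975, 1032 and 966 CPM at day 14 (log2 fold change 1.44, SE 0.21, adjusted p = 0.000222). Col8a2 (0.57, adjusted p = 0.00635) and Col15a1 (0.88, adjusted p = 0.00950) rose with it. Col14a1, a fibril-associated collagen of tendon, was called (0.54, adjusted p = 0.0407) with overlapping groups, and that call was lost without any of 5 libraries, with adjusted p up to 0.167. Among 28 genes for collagen processing and cross-linking Adamts2, Pcolce2 and Loxl2 rose and none fell, below the 15.7% called over all genes tested. Their calls were lost without any of 3, 5 and 7 libraries, with adjusted p up to 0.0651, 0.118 and 0.117, and no member rose without day 14 replicate 1 or 3.

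The few elastic fibre genes that were called went both ways. Ltbp4, which anchors latent TGF-beta in elastic microfibrils, read 215, 259, 285 and 252 CPM at day 7 and 637, 658, 789.7 and 359.9 CPM at day 14 (log2 fold change 1.27, SE 0.20, adjusted p = 0.000487), and every day 14 library was above day 7. Its relative Ltbp2 did the opposite, with 488, 358, 211 and 255 CPM and 90.4, 165, 115 and 103 CPM (log2 fold change -1.47, SE 0.24, adjusted p = 0.000843). Efemp2 (-0.39, adjusted p = 0.0167) and Emilin1 (-0.49, adjusted p = 0.0454) fell too. Their calls were lost without any of 2 and 6 libraries, with adjusted p up to 0.0534 and 0.143, and that of Emilin1 also under upper-quartile scaling. In all, 1 of 17 members rose and 3 fell, beside 7.09% and 8.57% of all genes tested.

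Enzymes that cut matrix and their inhibitors split as well, with 5 of 26 rising and 2 falling. Timp2 (ENSMUSG00000017466, chromosome 11, 118301069 to 118355740, minus strand), an inhibitor of metalloproteinases, read 2375, 2242, 2484 and 2442 CPM at day 7 and 4938, 3876, 5566 and 4101 CPM at day 14 (log2 fold change 0.95, SE 0.12, adjusted p = 9.66e-05). The day 7 libraries lay close together and every day 14 library was well above the highest of them. Adamts8 (1.81, adjusted p = 0.00300), Adamts9 (0.71, adjusted p = 0.000313), Timp3 (0.75, adjusted p = 0.0113) and Mmp2 (0.65, adjusted p = 0.00440), a gelatinase of fibroblasts, also rose. Mmp9 (ENSMUSG00000017737, chromosome 2, 164940780 to 164955850, plus strand), the gelatinase of neutrophils, macrophages and osteoclasts, fell. It read 602, 29.96, 60.4 and 95.1 CPM at day 7 and 3.59, 5.81, 4.96 and 10.4 CPM at day 14. Day 7 replicate 1 was far above the rest of its group, and the lowest day 7 library was still above every day 14 library (log2 fold change -4.99, SE 0.87, adjusted p = 0.00165). Without that replicate the log2 fold change of Mmp9 was -3.32 (edgeR, adjusted p = 0.00199). Adam8, another protease of myeloid cells, fell with it (-1.28, adjusted p = 0.00459).

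**Figure D2:**
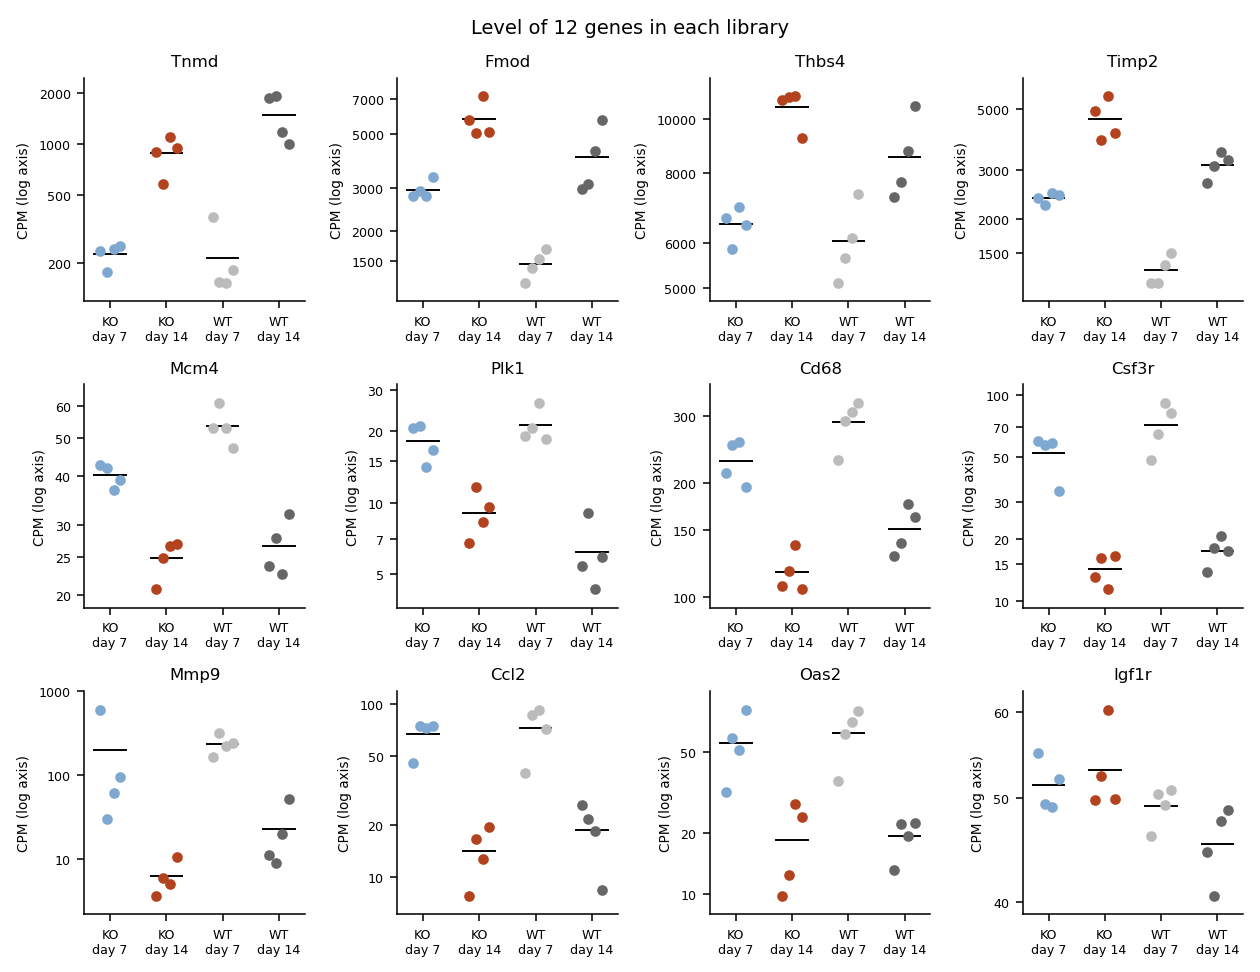
Level of 12 genes in CPM (log axis) in the 4 libraries of KO day 7, KO day 14, WT day 7 and WT day 14; points are libraries and bars are group means. Tnmd, Fmod, Thbs4 and Timp2 are higher and Mcm4, Plk1, Cd68, Csf3r, Mmp9, Ccl2 and Oas2 lower in every KO day 14 library than in any KO day 7 library, while Igf1r overlaps.

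Some genes around the IGF receptor rose. Of 20 IGF ligands, receptors and binding proteins 6 rose and none fell, with a median of 0.33. Htra1, a secreted protease that cleaves IGF binding proteins and matrix, read 249, 246, 301 and 289 CPM at day 7 and 564, 434, 669 and 460.2 CPM at day 14 (log2 fold change 0.97, SE 0.13, adjusted p = 0.000188). Stc2, stanniocalcin 2, which inhibits a protease of IGF binding proteins, read 4.78, 6.31, 4.27 and 4.99 CPM and 10.6, 9.16, 13.99 and 9.87 CPM (log2 fold change 1.10, SE 0.17, adjusted p = 0.000322). Insr, the insulin receptor, changed little in size and by more than its narrow spread, from 50.4, 49.5, 49.2 and 52.9 CPM to 65.5, 64.5, 56.96 and 65.3 CPM (log2 fold change 0.32, SE 0.07, adjusted p = 0.00611). The binding proteins Igfbp3 (0.92, adjusted p = 0.0475), Igfbp6 (0.63, adjusted p = 0.0397) and Igfbp7 (0.46, adjusted p = 0.0260) were called as rising, each with overlapping groups, and the call of Igfbp7 was lost without any of 6 libraries, with adjusted p up to 0.0844. The ligands Igf1 (0.34, adjusted p = 0.160) and Igf2 (-0.87, adjusted p = 0.224) and the adaptors Irs1 (0.42, adjusted p = 0.156) and Irs2 (0.06, adjusted p = 0.884) did not pass. The count of members that rose was 3 without day 7 replicate 2 or 4 or day 14 replicate 1 or 3. Of 24 genes that respond to FoxO factors, the transcription factors that insulin and IGF signals restrain, Tob1, Sesn3 and Insr rose and none fell (median 0.13). That share was below the 15.7% called over all genes tested, and Insr also stands among the IGF genes above. Tob1, an inhibitor of cell division, read 37.5, 38.8, 50.6 and 48.9 CPM and 63.8, 51.8, 66.3 and 69.6 CPM (log2 fold change 0.52, SE 0.13, adjusted p = 0.00955). The call of Sesn3 (0.60, adjusted p = 0.0105) was lost without day 14 replicate 1 (adjusted p = 0.0542).

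Genes of other growth factor pathways moved in part. Of 25 BMP and GDF genes 7 rose and none fell (median 0.26). They included the receptors Bmpr1a, with 107, 101, 101 and 112 CPM at day 7 and 168, 131, 163 and 154 CPM at day 14 (log2 fold change 0.55, SE 0.09, adjusted p = 0.000791), and Bmpr1b (0.79, adjusted p = 0.00142). The signal transducers Smad1, with 40.03, 41.1, 40.1 and 46.8 CPM and 58.2, 58.4, 76.4 and 66.4 CPM (log2 fold change 0.63, SE 0.11, adjusted p = 0.000927), and Smad5 (0.30, adjusted p = 0.0208) rose too. So did the secreted BMP antagonists Chrdl1, with 80.8, 69.9, 79.9 and 73.8 CPM and 187, 148, 186 and 136 CPM (log2 fold change 1.11, SE 0.13, adjusted p = 5.08e-05), and Chrd (0.62, adjusted p = 0.000791), and the ligand Gdf7 (2.12, adjusted p = 0.0103). Of 24 TGF-beta and activin genes 3 rose and 1 fell, a share called that was near the 15.7% over all genes tested. The ligand Tgfb2 read 67.9, 67.8, 73.98 and 77.04 CPM and 105, 93.9, 125 and 99.3 CPM (log2 fold change 0.56, SE 0.13, adjusted p = 0.00599), and the transducer Smad3 read 96.9, 89.8, 101 and 114 CPM and 146, 136, 163 and 132 CPM (log2 fold change 0.53, SE 0.09, adjusted p = 0.00124). Both were higher in all 4 day 14 libraries. Mstn, myostatin, read 2.79, 3.28, 9.97 and 4.67 CPM and 13.2, 7.35, 14.5 and 23.8 CPM (log2 fold change 1.51, SE 0.41, adjusted p = 0.0207), and day 7 replicate 3 overlapped day 14. Its call was lost without any of 4 libraries, with adjusted p up to 0.0703, and in the fit to the 8 KO libraries alone. Tgfbi fell (-0.41, adjusted p = 0.0428) and lost its call without any of 7 libraries, with adjusted p up to 0.135. Of 23 Wnt genes 5 rose and 2 fell. The ligand Wnt16 (1.96, adjusted p = 0.0181), the inhibitors Sfrp4 (1.23, adjusted p = 0.00706), Dkk2 (0.59, adjusted p = 0.0285) and Dkk3 (0.77, adjusted p = 0.00539) and the target Axin2 (0.64, adjusted p = 0.0422) rose, and the inhibitor Sfrp1 (-0.87, adjusted p = 0.0122) and the enhancer Rspo3 (-0.99, adjusted p = 0.0242) fell. Without day 7 replicate 2 or day 14 replicate 1, 2 Wnt genes rose, Wnt16 not among them (1.34 without the latter), and the falls were absent without day 7 replicate 1 or day 14 replicate 1.

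Genes that copy DNA fell almost as a whole list. Of 30 DNA replication genes 28 fell and none rose, with a median log2 fold change of -0.74, and the other members, Fen1 (-0.69, adjusted p = 0.108) and Ccne2 (-0.43, adjusted p = 0.116), were lower without passing. Their summed share was 0.0793, 0.0735, 0.0622 and 0.0624% of counts at day 7 and 0.0283, 0.0404, 0.0361 and 0.0433% at day 14, with no overlap. Mcm3 (ENSMUSG00000041859, chromosome 1, 20802968 to 20820312, minus strand) and Mcm4, subunits of the helicase that opens DNA at replication origins, had close replicates. Mcm4 read 42.5, 41.96, 36.8 and 39.1 CPM at day 7 and 20.7, 24.8, 26.6 and 26.9 CPM at day 14 (log2 fold change -0.70, SE 0.11, adjusted p = 0.000629). Mcm3 read 42.9, 42.1, 37.6 and 38.6 CPM and 17.5, 22.9, 21.7 and 24.04 CPM (log2 fold change -0.90, SE 0.16, adjusted p = 0.00101). Ccne1, the cyclin that starts S phase, read 10.7, 8.35, 7.22 and 7.52 CPM and 2.64, 3.32, 2.94 and 6.07 CPM (log2 fold change -1.17, SE 0.23, adjusted p = 0.00244), and Pcna, the sliding clamp of DNA polymerases, read 37.4, 39.001, 33.2 and 32.4 CPM and 20.2, 25.6, 26.5 and 26.7 CPM (log2 fold change -0.52, SE 0.10, adjusted p = 0.00247). For all 4 genes the highest day 14 library was below the lowest day 7 library. The largest falls of the list were those of Uhrf1 (-1.32) and Ccne1, and the smallest among the called were those of Pola1 (-0.44) and Tyms (-0.49), as log2 fold changes.

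Genes of mitosis fell with them and less evenly. All 30 were lower at day 14 (median -0.79), 17 passed, and 6 passed without day 14 replicate 1, the library with the lowest summed share. The shares were 0.104, 0.0917, 0.0677 and 0.0746% at day 7 and 0.0342, 0.0529, 0.0378 and 0.0551% at day 14, so day 7 replicates 1 and 2 were higher than 3 and 4, and day 14 replicates 2 and 4 higher than 1 and 3. Plk1 (ENSMUSG00000030867, chromosome 7, 122159439 to 122169873, plus strand), a kinase of mitotic entry, read 20.7, 21.1, 14.2 and 16.8 CPM and 6.73, 11.6, 8.29 and 9.59 CPM (log2 fold change -1.01, SE 0.20, adjusted p = 0.00269). Aurka, the spindle pole kinase, read 16.7, 17.9, 10.3 and 11.99 CPM and 6.13, 7.56, 5.32 and 7.98 CPM (log2 fold change -1.07, SE 0.25, adjusted p = 0.00668). Ndc80 (-1.02, adjusted p = 0.0104), of the kinetochore, and Bub1b (-0.93, adjusted p = 0.0106), of the spindle checkpoint, fell as well. Among D cyclins and CDK inhibitors the picture was mixed. Ccnd2, a D cyclin that growth factors induce, rose from 142, 127, 134 and 148 CPM to 204, 196, 187 and 185 CPM (log2 fold change 0.49, SE 0.08, adjusted p = 0.000762), and its partners Cdk6 (-0.51, adjusted p = 0.00993) and Cdk4 (-0.24, adjusted p = 0.0307) and the inhibitor Cdkn1a (-0.52, adjusted p = 0.0430) fell. The calls of Cdk4 and Cdkn1a were lost without any of 5 and 6 libraries, with adjusted p up to 0.110 and 0.119, and also under upper-quartile scaling.

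Since these genes fell together, their promoters were searched for letters that cell cycle promoters are known for, in the 300 bases from 250 before to 50 after each RefSeq start (GRCm38.p6), on both strands. RefSeq promoters were matched for 23 of 30 DNA replication and 26 of 30 mitosis genes. CCAAT, the box bound by NF-Y, was held by 60.9% of the DNA replication and 73.1% of the mitosis genes with a promoter, against 41.1% of all 27025 genes of the promoter table. TTTGAA, the core of the element that the DREAM and MuvB complexes bind in mitotic genes, was held by 13% and 73.1%, against 20.2% of all genes. TTTGGCGC or TTTCCCGC, letters of E2F sites, was held by 39.1% and 0%, against 1.8%. These are descriptions of letters and not of bound sites. The 150 bases before the start are given for 3 mitosis and 2 replication genes that fell and hold the letters in that stretch, picked after their values were seen, with any of these letters, read on either strand, in capitals, 5′ to 3′ on the strand of the gene. They lie at chr4:118437344-118437493, minus strand (Cdc20, log2 fold change -0.83, adjusted p = 0.0139), chr10:69352913-69353062, minus strand (Cdk1, -0.84, adjusted p = 0.0137), chr2:164769779-164769928, plus strand (Ube2c, -0.75, adjusted p = 0.0416), chr1:128359706-128359855, minus strand (Mcm6, -0.81, adjusted p = 0.00663) and chr1:20820313-20820462, minus strand (Mcm3, -0.90).
Cdc20: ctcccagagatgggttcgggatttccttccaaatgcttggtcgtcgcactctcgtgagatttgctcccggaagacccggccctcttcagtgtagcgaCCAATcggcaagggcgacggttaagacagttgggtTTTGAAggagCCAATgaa
Cdk1: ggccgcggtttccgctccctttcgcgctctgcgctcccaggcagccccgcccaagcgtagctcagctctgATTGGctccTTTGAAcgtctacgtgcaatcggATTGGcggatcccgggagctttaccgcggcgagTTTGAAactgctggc
Ube2c: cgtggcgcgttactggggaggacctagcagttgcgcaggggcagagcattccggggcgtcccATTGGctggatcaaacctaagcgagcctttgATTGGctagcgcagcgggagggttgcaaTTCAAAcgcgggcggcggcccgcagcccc
Mcm6: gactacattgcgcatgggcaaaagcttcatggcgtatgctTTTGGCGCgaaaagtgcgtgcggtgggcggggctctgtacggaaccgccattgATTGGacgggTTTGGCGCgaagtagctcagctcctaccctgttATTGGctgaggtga
Mcm3: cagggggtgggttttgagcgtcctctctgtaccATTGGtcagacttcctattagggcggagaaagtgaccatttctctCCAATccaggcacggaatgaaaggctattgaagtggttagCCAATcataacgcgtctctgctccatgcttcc
In the 3 mitosis promoters a CCAAT box, in either direction, stands before a TTTGAA or its reverse, and in Mcm6 both copies of TTTGGCGC share the stretch with CCAAT boxes in the reverse direction.

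Many myeloid cell transcripts fell. Of 27 macrophage genes 13 fell, none rose and 14 did not pass, with a median of -0.57. On that list 4 members lay above 0, the highest at a log2 fold change of 1.10. The list made up 0.466, 0.600, 0.663 and 0.463% of raw counts at day 7 and 0.347, 0.405, 0.429 and 0.329% at day 14. Divided by the TMM scaling factors of the libraries, these shares of the days overlap. Cd68 (ENSMUSG00000018774, chromosome 11, 69664213 to 69666153, minus strand), a lysosomal glycoprotein of macrophages, read 212, 252, 256 and 196 CPM at day 7 and 107, 117, 137 and 105 CPM at day 14 (log2 fold change -0.97, SE 0.12, adjusted p = 8.21e-05). The groups were well apart. Tyrobp, a signalling adaptor of myeloid receptors, read 140.4, 152, 141 and 113 CPM and 57.8, 73.2, 75.7 and 69.4 CPM (log2 fold change -0.99, SE 0.11, adjusted p = 3.81e-05), and the scavenger receptor Msr1 read 61.99, 66.2, 62.8 and 56.4 CPM and 20.6, 30.9, 33.8 and 37.7 CPM (log2 fold change -1.01, SE 0.15, adjusted p = 0.000327). Arg1, arginase 1, of macrophages in repair, fell much further, with 22.2, 13.5, 1.93 and 2.84 CPM and 0.178, 0.385, 0.327 and 0.408 CPM (log2 fold change -4.94, SE 0.79, adjusted p = 0.000798). Its day 7 libraries differed widely among themselves, with replicates 1 and 2 high, and all stood above day 14, with a log2 fold change of -4.20 without replicate 1. Chil3, another gene of such macrophages, read 18.5, 8.64, 6.72 and 7.05 CPM and 0.415, 2.76, 1.28 and 2.27 CPM (log2 fold change -2.60, SE 0.63, adjusted p = 0.0112), a call that was lost with limma-voom. Of 17 cathepsins and lysosomal proteases 7 fell and 2 rose. Ctss, cathepsin S of antigen-presenting cells, read 719, 873, 692 and 752 CPM and 281, 365, 448 and 371 CPM (log2 fold change -1.05, SE 0.13, adjusted p = 8.21e-05), while Ctsf (0.82, adjusted p = 0.000648) and Ctsk (0.67, adjusted p = 0.0177), a collagen-cleaving cathepsin, rose, the call of Ctsk being lost without any of 4 libraries, with adjusted p up to 0.0717.

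Among the 8 genes with the smallest p for a fall were several of blood-derived cells. Slc37a2, a sugar phosphate transporter of macrophages, read 109, 95.7, 74.8 and 75.7 CPM at day 7 and 29.1, 31.1, 32.4 and 23.7 CPM at day 14 (log2 fold change -1.61, SE 0.14, adjusted p = 4.62e-06). No other gene that fell under the naming rule had a smaller p. Ptpn6, a phosphatase of blood cells, read 55.2, 69.3, 57.6 and 61.7 CPM and 22.8, 29.4, 24.7 and 26.3 CPM (log2 fold change -1.24, SE 0.12, adjusted p = 1.53e-05). Nckap1l (-0.83, adjusted p = 2.54e-05), an actin regulator of blood cells, Tnfrsf11a (-1.06, adjusted p = 2.02e-05), the receptor that drives osteoclast formation, Apobec1 (-1.28, adjusted p = 2.02e-05), Arhgap19 (-1.40, adjusted p = 2.02e-05) and Atp6v1b2 (-0.83, adjusted p = 2.02e-05), a subunit of the lysosomal proton pump, fell too, with no overlap between groups in any of them.

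Of 8 neutrophil genes tested 3 fell and 1 rose. Csf3r (ENSMUSG00000028859, chromosome 4, 126024550 to 126044440, plus strand), the receptor for the neutrophil growth factor G-CSF, read 59.6, 57.1, 58.1 and 34.1 CPM at day 7 and 13.1, 16.2, 11.4 and 16.5 CPM at day 14 (log2 fold change -1.87, SE 0.20, adjusted p = 4.05e-05). Day 7 replicate 4 was the lowest of its group and still well above the highest day 14 library. Cxcr2, a chemokine receptor of neutrophils, read 11.3, 6.66, 8.95 and 2.51 CPM and 0.741, 2.01, 0.683 and 1.63 CPM (log2 fold change -2.53, SE 0.44, adjusted p = 0.00120). S100a8, a calcium-binding protein of neutrophils, read 15.5, 13.2, 15.2 and 2.98 CPM and 1.75, 6.16, 4.25 and 4.31 CPM (log2 fold change -1.51, SE 0.45, adjusted p = 0.0311). Its groups overlapped through day 7 replicate 4, and its call was lost without any of 6 libraries, with adjusted p up to 0.0990, and with limma-voom. Mpo was called as a rise at very low counts, from 0.109, 0.224, 0.0557 and 0.0336 CPM to 0, 1.45, 1.43 and 0.765 CPM with 1 day 14 library at 0 (log2 fold change 3.15, SE 0.80, adjusted p = 0.0115), and that call was lost with limma-voom.

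Signals that attract and activate these cells fell alongside. Of 27 chemokines 14 fell and 1 rose, with a median of -1.14. Without day 14 replicate 1, 8 chemokines fell. Ccl2 (ENSMUSG00000035385, chromosome 11, 82035571 to 82037453, plus strand), which attracts monocytes, read 45.7, 74.03, 72.3 and 74.3 CPM at day 7 and 7.76, 16.5, 12.7 and 19.5 CPM at day 14 (log2 fold change -2.24, SE 0.46, adjusted p = 0.00432). Day 7 replicate 1 was lower than the rest of its group and still above every day 14 library. Ccl8 (-1.54, adjusted p = 0.00767), Ccl4 (-2.16, adjusted p = 0.00228) and the neutrophil attractant Cxcl2 (-2.10, adjusted p = 0.00788) also fell, with no overlap. Ccl11, eotaxin, was the 1 that rose (0.70, adjusted p = 0.0260). Of 21 interleukins and related cytokine genes 8 fell and none rose (median -0.84). Il1rn, the interleukin 1 receptor antagonist, read 17.9, 24.5, 14.8 and 18.8 CPM and 2.96, 5.63, 6.63 and 8.44 CPM (log2 fold change -1.68, SE 0.31, adjusted p = 0.00178). Il6ra, the interleukin 6 receptor, read 48.2, 52.6, 59.1 and 47.8 CPM and 31.8, 36.8, 38.5 and 25.3 CPM (log2 fold change -0.65, SE 0.17, adjusted p = 0.0139). Osm (-1.43, adjusted p = 0.00795) and Tnf (-0.96, adjusted p = 0.0115) fell too, and both calls were lost in a fit to the 8 KO libraries alone, which left 2 members that fell. Without day 7 replicate 1 or day 14 replicate 1, 5 members fell.

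Antigen presentation and lymphocyte genes fell in part and leaned on single libraries. Of 14 MHC class II and dendritic cell genes 7 fell, and none remained past the threshold without day 7 replicate 2. H2-Aa read 415, 593, 461 and 403 CPM at day 7 and 244, 324, 308 and 344 CPM at day 14 (log2 fold change -0.62, SE 0.16, adjusted p = 0.0150). Replicate 2 was the highest of day 7 and all of day 7 stood above day 14. H2-Eb1 (-0.66, adjusted p = 0.0106), H2-Ab1 (-0.75, adjusted p = 0.0193) and H2-DMb1 (-0.70, adjusted p = 0.0167) behaved alike, with adjusted p up to 0.0508, 0.0764 and 0.0674 when 1 library was left out. Of 20 T and NK cell genes 4 fell. Cd4, the coreceptor of helper T cells, which macrophages can also express, read 21.5, 14.2, 17.9 and 18.8 CPM and 3.20, 2.25, 4.46 and 8.69 CPM (log2 fold change -1.96, SE 0.45, adjusted p = 0.00839). The granule genes Gzma (-3.69, adjusted p = 0.0350), Gzmb (-3.03, adjusted p = 0.0210) and Prf1 (-2.73, adjusted p = 0.0193) were highest in day 7 replicate 4, and the 3 calls, from overlapping groups, were lost without that library (adjusted p up to 0.118, 0.0964 and 0.141 over the left-out libraries), with limma-voom and in the fit to the 8 KO libraries alone. Without that library the log2 fold changes were -2.63 for Gzma, -1.89 for Gzmb and -1.42 for Prf1, and that of Gzma was -4.74 without day 14 replicate 4. Cd79b was the 1 of 10 B and plasma cell genes that fell (-1.34, adjusted p = 0.00285). None of 10 mast cell genes passed.

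Interferon-stimulated genes were lower at day 14 and varied widely between libraries of a day. All 18 were lower at day 14, 9 passed, and the median was -1.44. The list held 0.0410, 0.0611, 0.0563 and 0.125% of counts at day 7 and 0.0118, 0.0110, 0.0415 and 0.0372% at day 14, so day 7 replicate 4 was the highest and day 14 replicates 3 and 4 were well above replicates 1 and 2. Oas2 (ENSMUSG00000032690, chromosome 5, 120730333 to 120749853, minus strand), an enzyme that senses double-stranded RNA, read 31.7, 58.9, 51.1 and 80.9 CPM at day 7 and 9.84, 12.4, 27.9 and 23.9 CPM at day 14 (log2 fold change -1.59, SE 0.34, adjusted p = 0.00481). Rsad2, an antiviral enzyme, read 7.91, 25.2, 18.4 and 53.7 CPM and 2.37, 4.56, 9.63 and 8.77 CPM (log2 fold change -2.05, SE 0.48, adjusted p = 0.00911), with overlap between day 7 replicate 1 and day 14 and a log2 fold change of -1.43 without day 7 replicate 4. Oas1a (-1.67, adjusted p = 0.00584) and Oasl1 (-1.95, adjusted p = 0.00857) fell too. Without day 7 replicate 4, or without day 14 replicate 1 or 2, 4 members fell, and 1 did in the fit to the 8 KO libraries alone, where Oas1a, Oasl1 and Rsad2 lost their calls.

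The letters AAANNGAAA, part of the element that interferon-stimulated factors bind, were searched after the values were seen. They were held by 9 of the 12 interferon-stimulated genes with a RefSeq promoter (75%), against 12.1% of all genes. The 150 bases before the start are shown for Isg15 (log2 fold change -1.90, adjusted p = 0.0482, overlapping groups) at chr4:156200819-156200968, minus strand and Oas1a at chr5:120907526-120907675, minus strand, GRCm38.p6, with those letters in capitals, overlapping copies merged.
Isg15: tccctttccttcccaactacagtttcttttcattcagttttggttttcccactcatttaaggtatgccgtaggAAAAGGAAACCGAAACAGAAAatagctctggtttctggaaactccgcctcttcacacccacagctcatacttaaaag
Oas1a: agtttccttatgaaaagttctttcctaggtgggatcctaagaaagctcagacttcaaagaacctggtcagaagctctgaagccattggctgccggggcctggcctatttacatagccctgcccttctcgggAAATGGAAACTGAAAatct
In Isg15 the copies overlap into 1 run, as they do in Oas1a nearer to the start.

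Vessel genes rose modestly. Of 20 endothelial genes 6 rose and none fell, with a median of 0.31, and without any 1 of 5 libraries the count was 4. Aqp1, a water channel of capillaries, read 283, 477, 416 and 372 CPM at day 7 and 803, 695, 968 and 699 CPM at day 14 (log2 fold change 1.03, SE 0.16, adjusted p = 0.000350). Day 7 replicate 1 was the lowest, and no library overlapped. Ptprb, a phosphatase of endothelial junctions, read 47.8, 48.8, 46.7 and 52.1 CPM and 92.1, 96.5, 85.6 and 75.9 CPM (log2 fold change 0.84, SE 0.14, adjusted p = 0.000827). The junction protein Pecam1 (0.47, adjusted p = 0.0112) and the lymphatic factor Prox1 (0.73, adjusted p = 0.0124) also rose, as did Tek (0.46, adjusted p = 0.0240) and Cldn5 (0.69, adjusted p = 0.0381). Of 14 pericyte and smooth muscle genes Myh11, with 30.8, 34.03, 32.1 and 34.4 CPM and 68.6, 80.1, 63.4 and 46.7 CPM (log2 fold change 0.98, SE 0.23, adjusted p = 0.00824), and Rgs5 (0.82, adjusted p = 0.0104) rose. That share was near the 15.7% called over all genes tested. Of 19 basement membrane genes 4 rose. Lama2 (0.92, adjusted p = 0.000574), a laminin chain, kept its call without any 1 library, whereas Col4a4, Lamb2 and Lamc1 did not (adjusted p up to 0.0745, 0.0824 and 0.0676), and 1 member rose without day 14 replicate 1.

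Fibroblast genes of the tendon sheath rose in part, with 4 of 19 members up and none down (median 0.30). Dpt, dermatopontin, which speeds collagen fibril assembly, read 450.0, 544, 639.6 and 509 CPM at day 7 and 943, 779, 878 and 774 CPM at day 14 (log2 fold change 0.65, SE 0.12, adjusted p = 0.00183). Sema3c (0.79, adjusted p = 0.00936), a guidance factor, and Thy1 (0.44, adjusted p = 0.00437), a surface glycoprotein of fibroblasts, rose with no overlap, and Lum is the fourth. Of 9 bone cell genes Dmp1, a matrix protein of mineralising cells, rose from 0.295, 0.422, 0.501 and 0.555 CPM to 1.36, 1.72, 3.65 and 1.35 CPM (log2 fold change 2.18, SE 0.42, adjusted p = 0.00218), at low counts, and Ctsk as above. Of 18 cartilage genes Col11a1 and Chad rose and Cytl1 fell, from 8.59, 17.98, 2.51 and 3.75 CPM to 1.39, 2.52, 0.862 and 1.43 CPM (log2 fold change -2.40, SE 0.61, adjusted p = 0.0146), a call lost without day 7 replicate 2 or day 14 replicate 1, with adjusted p up to 0.0649 and a log2 fold change of -1.67 without the first. Of 16 Schwann cell and nerve genes 3 fell and 1 rose, at low counts, and no fall remained without day 14 replicate 1 or 3. None of 16 adipocyte genes passed.

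Muscle transcripts varied between libraries of a day more than between days. The 32 skeletal muscle fibre genes made up 0.873, 0.714, 1.17 and 1.65% of counts at day 7 and 1.32, 1.98, 0.201 and 3.15% at day 14, with day 14 replicate 3 the lowest and replicate 4 the highest (two-sided exact permutation p = 0.914). Of the 32, Myh7 and Myl2, of slow fibres, rose and none fell, with a median of 0.74. Myh7 read 0.140, 0.0994, 0.130 and 0.101 CPM at day 7 and 15.8, 4.15, 0.119 and 3.60 CPM at day 14 (log2 fold change 5.61, SE 1.08, adjusted p = 0.00273), overlapping through day 14 replicate 3, and the call was lost with limma-voom. The call of Myl2 (2.26, adjusted p = 0.0445) was lost without any of 6 libraries, with adjusted p up to 0.112. The log2 fold change of Myh7 was 4.44 without day 14 replicate 1, and that of Myl2 was 3.25 without day 7 replicate 1. Genes of myoblasts and regenerating muscle were lower in 15 of 16, and 5 fell (median -1.39). Chrng, the fetal subunit of the acetylcholine receptor, read 1.99, 3.78, 7.41 and 12.2 CPM and 0.445, 0.593, 0.149 and 1.89 CPM (log2 fold change -3.02, SE 0.65, adjusted p = 0.00498). Mymx, which fuses myoblasts, read 0.853, 1.14, 1.84 and 2.88 CPM and 0.178, 0.385, 0.119 and 0.714 CPM (log2 fold change -2.24, SE 0.48, adjusted p = 0.00440). Mymk (-2.39, adjusted p = 0.0188), Chrnd (-2.95, adjusted p = 0.0181) and Actc1 (-2.83, adjusted p = 0.0435) fell too, and 2 members remained without day 7 replicate 4 or day 14 replicate 1. The log2 fold change of Chrnd was -2.28 without day 7 replicate 4. Without day 14 replicate 4, log2 fold changes were -4.00 for Chrng, -3.95 for Chrnd, -3.04 for Mymk and -2.87 for Mymx. With a muscle score, the mean log2 level of the muscle fibre genes, as a covariate, 3168 genes passed in the comparison of the days, 2811 of them among the 2962.

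Skin transcripts marked 1 library. The 14 keratinocyte genes made up 0.000940, 0.0871, 0.00228 and 0.00112% of counts at day 7 and 0.00217, 0.00186, 0.00176 and 0.00232% at day 14, so by that share day 7 replicate 2 alone was raised. Krt14 read 0.171, 376, 4.72 and 0.168 CPM at day 7, where replicate 3 was raised too, and 0.119, 0.178, 0.208 and 0.0765 CPM at day 14 (log2 fold change -9.35, SE 2.42, adjusted p = 0.0162). Krt1 and Sfn were called as falls in the same way. Without day 7 replicate 2 the log2 fold changes were -3.52 for Krt14, -2.36 for Krt1 and -0.24 for Sfn, and none of the 3 was called without that library or without day 14 replicate 1. Pkp1, a desmosome protein of skin, read 2.85, 35.4, 2.10 and 2.34 CPM and 0.504, 0.533, 0.951 and 1.38 CPM (log2 fold change -3.64, SE 0.85, adjusted p = 0.00897). Its other day 7 libraries also lay above day 14, and without day 7 replicate 2 its log2 fold change was -1.52 (edgeR, adjusted p = 0.0224). Its call was lost in the fit to the 8 KO libraries alone and with limma-voom. Leaving out day 7 replicate 2 brought the number of genes called to 1885, and the part of skin RNA in that change was not tested. Erythroid genes, in 7 of 7 of which the log2 fold change was above 0, gave no call.

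**Figure D3:**
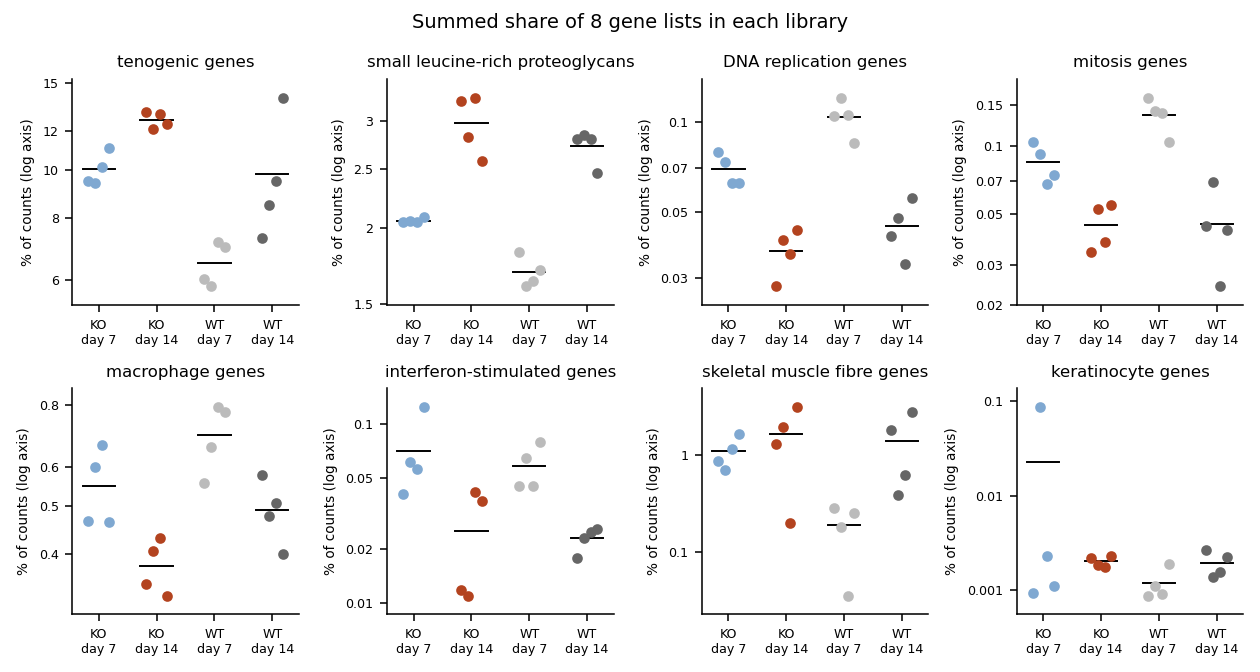
Summed share of raw counts, in percent (log axis) and without TMM scaling, of 8 gene lists in the 4 libraries of each group. Points are libraries and bars are group means. Tenogenic and proteoglycan shares are higher, and DNA replication, mitosis and macrophage shares lower, in every KO day 14 library than in any at KO day 7. Muscle fibre shares overlap, and the keratinocyte share stands out in 1 KO day 7 library. Divided by the TMM factors, the macrophage shares of the KO days overlap.

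Few genes of protein synthesis and metabolism passed the test. None of 34 ribosome biogenesis genes passed in edgeR's quasi-likelihood test (28 were below 0, median -0.16). Of 76 cytosolic ribosomal protein genes 4 fell and 1 rose, and 65 were below 0. Their summed share of raw counts was 0.842, 0.790, 0.743 and 0.699% at day 7 and 0.580, 0.658, 0.655 and 0.632% at day 14. Divided by the TMM factors given below, those shares of the days overlap. The 4 falls, of Rpsa (-0.35, adjusted p = 0.0114), Rpl8 (-0.27, adjusted p = 0.0390), Rps9 (-0.28, adjusted p = 0.0401) and Rps2 (-0.26, adjusted p = 0.0443), were absent without day 14 replicate 1. Rpl29, the 1 that rose, has many near-identical copies in the genome and its counts are uncertain. It read 8.56, 7.53, 6.65 and 25.6 CPM at day 7 and 35.7, 39.6, 41.9 and 7.88 CPM at day 14 (log2 fold change 1.37, SE 0.44, adjusted p = 0.0435), so that 1 library of each day sat with the other day, and its call was lost without any of 6 libraries, with adjusted p up to 0.128 and a log2 fold change of 2.04 without day 7 replicate 4. Of 33 secretory pathway genes Sec62 rose (0.24, adjusted p = 0.0265), a call lost without any of 6 libraries, with adjusted p up to 0.0728. Of the 33, 21 were below 0 and none fell, with a median log2 fold change of -0.07. Their summed share of raw counts was 0.954, 0.959, 0.857 and 0.855% at day 7 and 0.720, 0.798, 0.808 and 0.816% at day 14, lower with no overlap (two-sided exact permutation p = 0.0286). That share is not TMM scaled, and TMM factors were 0.98 to 1.02 at day 7 and 0.90 to 0.93 at day 14. Divided by these factors, the shares of the days overlap, so the gap is not kept under TMM scaling. Of 24 integrated stress response genes Psat1, of serine synthesis, fell from 48.3, 42.5, 34.4 and 40.001 CPM to 17.7, 27.7, 28.5 and 30.1 CPM (log2 fold change -0.67, SE 0.14, adjusted p = 0.00412), as did Slc7a11 (-1.07, adjusted p = 0.0199), and Nupr1 (0.78, adjusted p = 0.0352) rose. The calls of Slc7a11 and Nupr1 were lost without any of 2 and 6 libraries, with adjusted p up to 0.0764 and 0.0967. All 22 cholesterol synthesis genes were below 0 (median -0.30) and Mvk (-0.43, adjusted p = 0.0126), Mvd (-0.56, adjusted p = 0.0134) and Fdft1 (-0.65, adjusted p = 0.0347) fell. None of those 3 passed without day 14 replicate 1. TCACNCCAC, letters of the sterol response element, was held by 1 of the 14 genes of that list with a promoter, Hmgcs1, which was not called, against 1.44% of all genes.

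In energy metabolism, 1 of 21 glycolysis genes fell, Eno1 (-0.66, adjusted p = 0.00787), whose call was lost in the fit to the 8 KO libraries alone, and 1 of 55 nuclear genes of oxidative phosphorylation, Cox6a1 (-0.27, adjusted p = 0.0213), whose call was lost without any of 3 libraries, with adjusted p up to 0.0908. Of 7 mitochondrially encoded mRNAs tested all were above 0 (median 0.52) and mt-Nd2, mt-Nd4 and mt-Cytb rose. mt-Nd2 read 1012, 1021, 901 and 1055 CPM at day 7 and 1497, 1590.3, 1296 and 1900.4 CPM at day 14 (log2 fold change 0.66, SE 0.17, adjusted p = 0.0126). The calls of mt-Nd4 (0.60, adjusted p = 0.0202) and mt-Cytb (0.57, adjusted p = 0.0335) were lost without any of 2 and 7 libraries, with adjusted p up to 0.0675 and 0.114. Of 19 circadian clock genes Rora, with 81.5, 70.1, 76.04 and 77.9 CPM and 131, 101, 139 and 118 CPM (log2 fold change 0.68, SE 0.12, adjusted p = 0.00142), and Cry2 (0.63, adjusted p = 0.00403) rose, and the sources used here do not give the time of day of collection. The share of clock genes called was below the 15.7% over all genes tested. Among 23 immediate early genes Nr4a3 (1.68, adjusted p = 0.0152) and Nr4a2 (0.81, adjusted p = 0.0236) rose and Fosl1 (-1.33, adjusted p = 0.0139) and Egr2 fell. The calls of these 4 were each lost without at least 1 library, with adjusted p up to 0.0576, 0.0928, 0.0567 and 0.136.

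Outside the lists, the largest rises under the naming rule (a mean of at least 5 CPM and no overlap between groups) included Ackr4, a scavenger receptor for chemokines, with 8.68, 5.49, 8.45 and 13.6 CPM at day 7 and 44.7, 28.5, 56.5 and 28.4 CPM at day 14 (log2 fold change 2.12, SE 0.38, adjusted p = 0.00179). Fbln7, a cell adhesion fibulin, read 17.8, 23.7, 28.1 and 34.9 CPM and 175, 73.5, 142 and 59.6 CPM (log2 fold change 2.11, SE 0.32, adjusted p = 0.000587). Rbp4, the retinol carrier, read 19.6, 17.04, 16.7 and 13.03 CPM and 85.1, 52.9, 65.6 and 35.3 CPM (log2 fold change 1.85, SE 0.25, adjusted p = 0.000192). In all 3 genes the groups were apart. Gpm6a (1.72, adjusted p = 0.000151), Thrsp (1.76, adjusted p = 0.00795), Casr (1.57, adjusted p = 0.00109), the calcium-sensing receptor, Fam180a (2.04, adjusted p = 0.00449) and the sodium channel subunit Scn4b (2.24, adjusted p = 0.0251) completed the 15 largest rises under that rule, and the call of Scn4b was lost without any of 5 libraries, with adjusted p up to 0.0716. Smaller rises with very narrow spread had the smallest p. Jade1 read 22.1, 24.4, 25.5 and 23.3 CPM and 35.2, 34.1, 37.5 and 35.6 CPM (log2 fold change 0.58, SE 0.06, adjusted p = 2.02e-05). Dock9 (0.88, adjusted p = 4.09e-05), Chd5 (1.21, adjusted p = 6.92e-05), Tmtc1 (0.86, adjusted p = 8.21e-05), Dpp6 (1.37, adjusted p = 0.000107) and Cpq (0.88, adjusted p = 0.000115) were of the same kind. Among large falls, Meltf, melanotransferrin, read 32.1, 46.4, 16.7 and 14.3 CPM and 1.36, 5.75, 3.09 and 4.97 CPM (log2 fold change -2.85, SE 0.68, adjusted p = 0.0105), and the carbonic anhydrase Car12 read 76.7, 43.3, 20.8 and 28.1 CPM and 6.02, 7.17, 5.35 and 15.2 CPM (log2 fold change -2.32, SE 0.39, adjusted p = 0.00123). Slfn1 (-2.39, adjusted p = 0.00505), Slfn4 (-2.09, adjusted p = 0.00383), Oas3 (-2.42, adjusted p = 0.0236), Cxcl9 (-2.78, adjusted p = 0.0104), Sirpb1c (-2.03, adjusted p = 0.000835) and Serpina3g (-2.24, adjusted p = 0.00340) fell as well, the call of Oas3 being lost without any of 3 libraries (adjusted p up to 0.0760) and that of Slfn4 in the fit to the 8 KO libraries alone. The log2 fold change of Slfn4 was -1.41 without day 7 replicate 4, and that of Cxcl9 was -2.03 without day 7 replicate 2.

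The same days in WT tendons gave more calls, and 71.1% of the rises and 79.5% of the falls called in KO were called in the same direction there. In WT, 3031 genes rose (16.0%) and 2714 fell (14.3%). Of the genes that rose in KO, 954 rose in WT, which is 31.5% of the WT list, and 1289 fell in both, 47.5% of the WT list. In opposite directions, 2 genes rose in KO and fell in WT and 1 gene did the reverse. Genes called as rising in WT had a median log2 fold change of 0.69 there and 0.35 in KO, and those called as falling had -0.64 and -0.43, values that favour the group in which they were picked. Picked in KO instead, the medians were 0.60 in KO and 0.58 in WT for rises and -0.69 and -0.70 for falls. Across the 18918 genes, which are not independent replicates, the log2 fold changes of KO and WT had Pearson's r of 0.57 and Spearman's rho of 0.63.

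The test of the difference itself, the interaction of genotype and day, gave 0 calls (0% of genes) in edgeR's quasi-likelihood test, with a smallest adjusted p of 0.129. At an unadjusted p below 0.05 there were 2039 genes (10.8%), 1231 with a lower log2 fold change in KO and 808 with a higher one. DESeq2 called 190 and limma-voom 0, and leaving out 1 library gave 0 to 11, the highest without WT day 7 replicate 1. So a difference between genotypes in the second week was not shown for any single gene by the main test, and for most genes it was not measured tightly enough to call the courses alike. Mitosis genes had a median of -0.79 in KO and -1.39 in WT, and DNA replication genes -0.74 and -0.99. The KO groups started lower. Mean mitosis shares of raw counts were 0.084% in KO and 0.136% in WT at day 7, and 0.045% in both at day 14. Mean DNA replication shares were 0.069% in KO and 0.104% in WT at day 7, and 0.037% and 0.045% at day 14. For Plk1 the interaction was 0.77, SE 0.28, unadjusted p = 0.0129, adjusted p = 0.336, and for Mcm4 it was 0.32, SE 0.16, unadjusted p = 0.0624, adjusted p = 0.489. For Tnmd the log2 fold change was 1.96 in KO and 2.80 in WT (interaction -0.83, SE 0.38, unadjusted p = 0.0441, adjusted p = 0.452). Chrd had 0.62 and 1.42 (interaction -0.81, SE 0.15, unadjusted p = 2.44e-05, adjusted p = 0.129), Tob1 0.52 and 1.34 (interaction -0.83, SE 0.18, unadjusted p = 0.000176, adjusted p = 0.129) and Mstn 1.51 and 4.28 (interaction -2.78, SE 0.60, unadjusted p = 0.000245, adjusted p = 0.135). For Cd68 both genotypes gave nearly the same value, -0.97 and -0.93 (interaction -0.04, SE 0.17, unadjusted p = 0.810, adjusted p = 0.962).

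The lists that lay furthest from equal change were markers of cells other than tenocytes. Muscle fibre genes had a median of 0.74 in KO and 3.35 in WT, with 2 and 27 of 32 called as rising. Their share was 0.0357 to 0.286% in WT day 7 and 0.394 to 2.81% in WT day 14 libraries, so the WT days did not overlap, as the KO days did. Adding the muscle score to the model left 2893 calls in WT in place of 5745, and 3168 in KO in place of 2962. Muscle share and day went together in WT, so this fit cannot tell muscle RNA from other changes between the WT days. Erythroid genes had medians of 0.11 and 1.62, mast cell genes 0.16 and -0.93, and keratinocyte genes -2.72 and 0.46, the last resting on KO day 7 replicate 2.

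**Figure D4:**
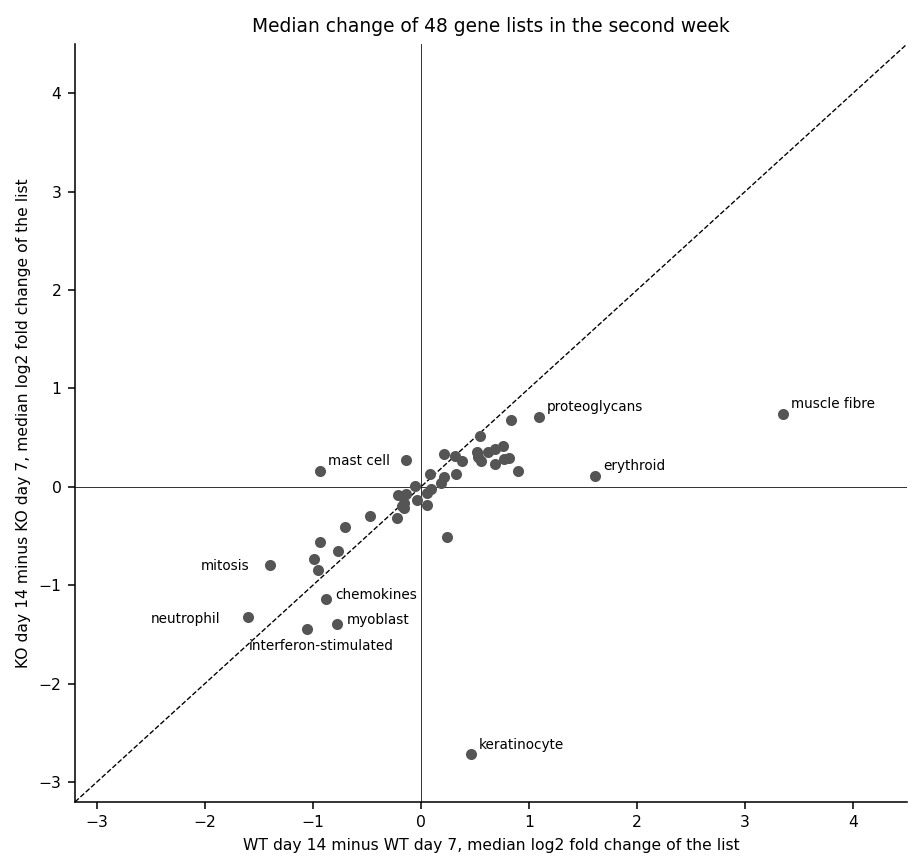
Median log2 fold change from day 7 to day 14 of each of 48 gene lists in WT (horizontal axis) and KO (vertical axis); points are lists and the dashed line marks equal change. Most lists lie near the line, while muscle fibre (3.35 in WT, 0.74 in KO), erythroid, mast cell and keratinocyte genes lie away from it.

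The authors' deposited table of comparisons holds 13266 genes. Its column headed as KO day 14 against WT day 7 equals, within 0.001 for all 13266 genes, the difference between the KO to WT log2 fold changes of day 14 and day 7 in that table, which is the interaction, and it equals what its heading says for 27. In that column of the authors' deposited table the smallest false discovery rate was 0.0963, and 1664 genes had a p below 0.05. Of the genes called here, 2601 are in the authors' deposited table, and for all 2601 the difference of its 2 KO columns against WT day 0 has the same sign, with a median absolute difference of 0.0154 on the log2 scale.

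**Figure D5:**
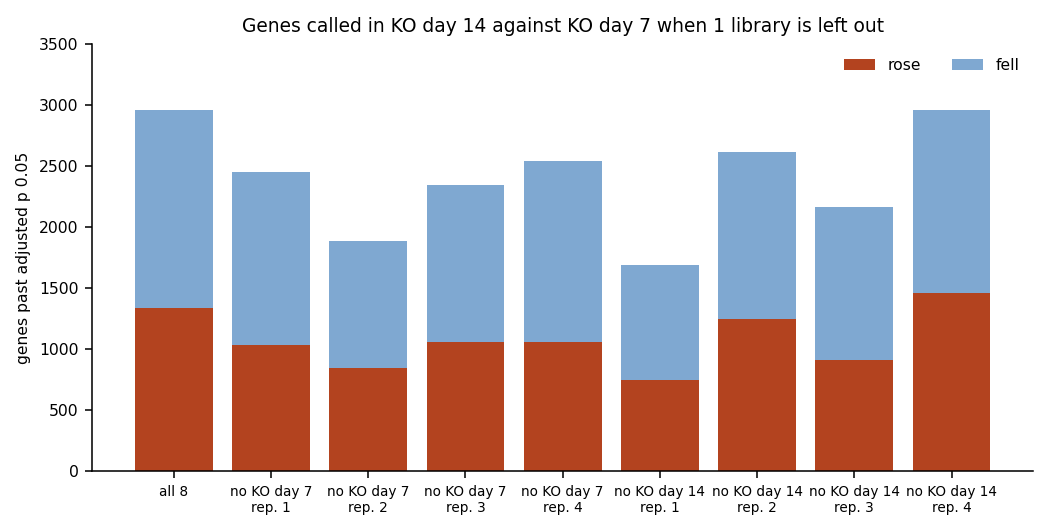
Number of genes that rose (red) and fell (blue) between KO day 7 and KO day 14, at an adjusted p below 0.05, with all 8 KO libraries and with 1 left out. The total of 2962 drops to 1693 without day 14 replicate 1 and to 1885 without day 7 replicate 2.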

How the data were processed

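Total RNA of plantaris tendons was sequenced in 20 libraries, 4 in each of 5 groups. The deposited gene counts were raw whole-number counts of 24885 genes, and the submitters' processing notes name FastQC, STAR, edgeR and mm10, with no versions. The sources used here do not give the counter, its strand setting or the annotation. The deposited table of the authors' comparisons gives log2 fold changes and p-values with false discovery rates. It was used for the last comparison alone.

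Libraries were grouped by their labels. Genes were kept by filterByExpr (18918), scaled by TMM and fitted over all 20 libraries, which share 1 estimate of the spread, with the quasi-likelihood test of edgeR 4.0.16 in R 4.3.3, robust, without a block. Contrasts were KO day 14 against KO day 7, the same in WT, and their difference. P-values were Benjamini-Hochberg adjusted over all genes tested, with calls at 0.05, and CPM are counts scaled to the TMM library size. Summed shares of lists are percentages of the raw counts of a library, without TMM scaling. Single values were compared by exact permutation over the 70 arrangements of 4 and 4 libraries. The procedure was tested on simulated data. Totals of 32.3 to 63.5 M counts per library leave genes under about 1 CPM imprecise, and permutation p-values cannot go below 0.0286.

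Members and lists were chosen with earlier results of these data known. The 48 lists held 1029 genes, of which 1005 were tested. Named were Igf1r, Scx and Bop1, up to 15 genes in each direction with the largest change and 8 with the smallest p (mean of at least 5 CPM, no overlap, known names), and up to 4 called members per list with the smallest p, or 2 where none was called. A gene that this rule names is not reported here. Other list members, the promoters shown and the interaction values singled out were chosen after values were seen. Alternatives were other scalings, filters and tools (DESeq2 1.42.0, limma-voom 3.58.1), the 8 KO libraries alone, a replicate block, a muscle score and leaving out each library. Coordinates are from GENCODE M21 (GRCm38) and promoters from RefSeq (GRCm38.p6).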

Additional observations from a re-analysis of the deposited data

Results flagged for a closer look

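Within each group of 4 KO libraries the gap between the highest or lowest library and its nearest neighbour was divided by the range of the group, on log2 values of the named genes and log2 shares of the lists. The ratio passed Dixon's critical value for 4 samples in 28 of 456 groups (6.14%), where chance gives about 1 in 20 for independent groups that were not picked. Many of these genes were picked by their values, and the lists share libraries and members. The number of flags can therefore not be judged against that rate.

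In KO day 7, replicate 1 stood high for Adamts8 (0.901) and Cdk4 (0.854) and low for Ccl2 (0.945), Pecam1 (0.895) and Egr2 (0.922). Its share was high for matrix glycoproteins (0.831) and for metalloproteinases and their inhibitors (0.861). Replicate 2 stood high for the skin genes Pkp1 (0.911) and Sfn (0.929) and low for Tnmd (0.832). Replicate 4 stood low for the neutrophil genes Csf3r (0.924) and S100a8 (0.897) and for the neutrophil share (0.831), and its proteoglycan share was high (0.849).

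In KO day 14, replicate 1 stood low for Pcna (0.845), Psat1 (0.842), Slc7a11 (0.831) and H2-Ab1 (0.831), and its mast cell share was high (0.921). It is also the library without which the fewest genes passed, 1693. Replicate 2 stood low for Cxcl9 (0.954). Replicate 3 stood low for Insr (0.884) and the muscle gene Myl2 (0.852), and its share of TGF-beta and activin genes was high (0.843). Replicate 4 stood low for Igfbp7 (0.900), Thbs4 (0.912), Chad (0.887), Lamb2 (0.838) and Rpl29 (0.901).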

How the results depend on the processing

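With 2962 genes called between KO day 7 and KO day 14, other scalings, filters and tools, the muscle score and the fit to the 8 KO libraries alone gave 2645 to 3711. The replicate number as a block gave 3146 over the 20 libraries. As a block in the 8 KO libraries alone it gave 1963, of which 889 rose and 1074 fell, in a fit with fewer libraries and fewer residual degrees of freedom. The numbers did not pair the libraries: deviations of day 7 and day 14 libraries of the same number had correlations of -0.06, 0.05, -0.08 and 0.25, and not every library correlated best with its own number. A call lost under the block is therefore not read as a smaller change. Leaving out 1 library gave 1693 to 2956 genes, 746 to 1459 of them rising and 947 to 1497 falling, lowest without KO day 14 replicate 1 and next lowest without KO day 7 replicate 2 (1885, with 844 rising and 1041 falling). In WT, where the muscle share was higher at the later day, the muscle score as a covariate brought 5745 genes to 2893. The interaction of genotype and day gave 190 genes with DESeq2 in place of 0, and 0 to 11 when 1 library was left out: 11 without WT day 7 replicate 1, 5 without KO day 14 replicate 4, 4 without WT day 14 replicate 4, 2 without KO day 7 replicate 1, and 1 without WT day 7 replicate 4 or WT day 14 replicate 1. The causes were not tested.

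Of 171 called genes named by the rule, all kept their direction: 1558 of 1699 values under other settings and 1151 of 1368 without 1 library stayed past the threshold. Among the 9 that were not called, Scx passed under 1 setting and without 3 libraries, as given with its values. Bop1 passed without KO day 14 replicate 2 (0.71, edgeR adjusted p = 0.0201), Nhp2 without KO day 14 replicate 4 (-0.49, adjusted p = 0.0410), and Cfd with the replicate block in the 8 KO libraries alone (1.03, adjusted p = 0.0264). Directions reversed, without a call, when 1 library was left out: Igf1r ranged from -0.021 (without KO day 14 replicate 3) to 0.079, and Slc4a1 from -0.10 (without KO day 7 replicate 1) to 0.61. Depth limits genes under about 1 CPM, such as Mpo, Myh7 and Dmp1 at day 7.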

Other observations

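Among nerve and Schwann cell genes S100b, a calcium-binding protein of glia and of cartilage, read 10.02, 11.999, 6.96 and 7.65 CPM at KO day 7 and 3.79, 4.50, 4.87 and 7.83 CPM at KO day 14 (log2 fold change -0.80, SE 0.23, adjusted p = 0.0214). In WT its log2 fold change was 0.79, adjusted p = 0.0125, and the interaction was -1.59, SE 0.32, unadjusted p = 8.10e-05, adjusted p = 0.129. The KO call was lost without any of 5 libraries, with adjusted p up to 0.0851. Gfap (-1.63, adjusted p = 0.0472), the glial filament protein, and Cdh19 (0.81, adjusted p = 0.0466), a cadherin of nerve sheaths, went opposite ways, and both calls were lost without any of 6 and 7 libraries, with adjusted p up to 0.131 and 0.179. Lysosomal proteases that fell with Ctss included Ctsc, cathepsin C, with 238, 332, 362 and 291 CPM and 150.1, 186, 173 and 172 CPM (log2 fold change -0.84, SE 0.12, adjusted p = 0.000212), and Lgmn, legumain, with 699, 819, 892 and 734 CPM and 434, 529, 493 and 510.1 CPM (log2 fold change -0.68, SE 0.11, adjusted p = 0.000587).

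In lists without any call the members with low p included Hdc (-0.33, adjusted p = 0.422) and Ms4a2 (0.49, adjusted p = 0.446) of mast cells, Car3 (1.07, adjusted p = 0.186) and Cfd (0.97, adjusted p = 0.211) of adipocytes, Slc4a1 (0.29, adjusted p = 0.817) of red cells and Nhp2 (-0.36, adjusted p = 0.109) of ribosome biogenesis, each with its log2 fold change. The adipocyte gene Car3 read 390.2, 338, 435 and 497 CPM at day 7 and 685, 1019, 234 and 1540.0 CPM at day 14, overlapping.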
